A study of Homo sapiens with 3 samples.

Results

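The miR-148 and miR-152 family comprises microRNAs that are cut from the hairpins MIR148A, MIR148B and MIR152. Each hairpin can release a product from its 5′ arm (5p) and its 3′ arm (3p). The 5 members examined, hsa-miR-148a-3p, hsa-miR-148a-5p, hsa-miR-148b-3p, hsa-miR-148b-5p and hsa-miR-152-3p (written without the species prefix from here), were taken by name from 2588 mature miRNAs listed, with rows of the same name summed. All 5 were listed, each at 1 locus. miR-152-5p, the partner arm of miR-152-3p, is given beside them but was not counted as a member.

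Small RNA libraries came from parental cells of the thyroid cancer line C643, the ovarian cancer line ES-2 and the liver cancer line Huh-7. All were cultured in DMEM with fetal bovine serum and were represented by 1 library each. There were no replicates, so no difference between lines could be set against a replicate spread and no test between lines was made. C643 lies in a table apart from ES-2 and Huh-7, and levels set across the tables are described only. Depth was 1663181 to 8183100 reads on miRNAs, and the share that a count of 0 allows reached 3.67e-05% for C643, 0.000138% for Huh-7 and 0.00018% for ES-2.

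MicroRNAs guide Argonaute proteins to mRNAs, mainly by pairing of the seed, the bases near their 5′ end, and so lower the output of these mRNAs. miRNAs with 1 seed can act on largely overlapping targets, and so the members of this family are usually treated together. miR-148a is known as an abundant miRNA of the liver, and the family is known for targeting DNMT1, the maintenance DNA methyltransferase. The seed is carried by the 3p arms, which are the main products.

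The mature sequences are shown because they define the family. RefSeq (GRCh38.p14) had entries for 5 of the 6 arms. Capitals mark the seed, bases 2 to 8, and sequences run 5′ to 3′.
miR-148a-3p: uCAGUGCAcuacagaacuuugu
miR-148b-3p: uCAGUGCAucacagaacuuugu
miR-152-3p: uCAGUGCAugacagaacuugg
miR-148b-5p: aAGUUCUGuuauacacucaggc
miR-152-5p: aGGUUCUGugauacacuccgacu

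The 3p arms of all 3 hairpins had the same seed. Of 2281 listed miRNAs with a RefSeq sequence these 3, or 0.132%, carried it. With positions counted from 1 at the 5′ end, miR-148b-3p differed from miR-148a-3p by C9U and U10C. miR-152-3p differed from miR-148a-3p by C9U, U10G and U20G and was 1 base shorter. The 5p seeds of miR-148b and miR-152 differed from the 3p seed and from each other.

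The hairpins show where the arms lie. Capitals mark the 3p arm of each hairpin and the 5p arms of MIR148B and MIR152.
MIR148A: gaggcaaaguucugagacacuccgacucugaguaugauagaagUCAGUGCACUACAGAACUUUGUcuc
MIR148B: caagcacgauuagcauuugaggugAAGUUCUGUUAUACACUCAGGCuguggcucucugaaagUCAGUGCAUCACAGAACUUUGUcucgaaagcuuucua
MIR152: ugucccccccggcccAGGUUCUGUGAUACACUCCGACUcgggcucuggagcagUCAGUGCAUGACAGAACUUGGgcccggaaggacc

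The 3 genes lie on different chromosomes and do not form a cluster. MIR148A, at chr7:25949919-25949986 on the minus strand (GRCh38), overlapped no other gene of GENCODE version 29. MIR148B, at chr12:54337216-54337314 on the plus strand, lay in introns of COPZ1 and of the non-coding gene AC078778.2, on the same strand. MIR152, at chr17:48037161-48037247 on the minus strand, lay in an intron of COPZ2, also on the same strand. COPZ1 and COPZ2 encode zeta subunits of the coatomer, the coat of vesicles of the early secretory pathway, so 2 of the family's hairpins sit in paralogous host genes.

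The first question was how much of each member the lines contained. Of the 3p arms, miR-148a-3p varied most. It had 4447 reads for C643, 11 for ES-2 and 62362 for Huh-7. Its share of all miRNA reads was 2.87% in Huh-7 (Wilson 95% CI 2.85 to 2.89) but 0.0543% in C643 (0.0528 to 0.056) and only 0.000661% in ES-2 (0.000369 to 0.00118). Among single miRNAs it ranked 86 for C643, 313 for ES-2 and 5 for Huh-7. Huh-7 stood far above C643, and C643 far above ES-2, with no overlap of the counting intervals. Bulk libraries cannot tell fewer cells with a miRNA from less of it per cell.

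miR-148b-3p was similar in C643 and ES-2 and higher in Huh-7. It had 9589 reads for C643, 1619 for ES-2 and 6483 for Huh-7. The shares were 0.117% (95% CI 0.115 to 0.12), 0.0973% (0.0927 to 0.102) and 0.298% (0.291 to 0.306), respectively. The intervals did not overlap, but C643 and ES-2 lay close together. Its rank moved from 66 in C643 and 63 in ES-2 to 44 in Huh-7.

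miR-152-3p had another order of lines, with the lowest share in Huh-7. It had 3252 reads for C643, 574 for ES-2 and 355 for Huh-7. This gave shares of 0.0397% (95% CI 0.0384 to 0.0411), 0.0345% (0.0318 to 0.0375) and 0.0163% (0.0147 to 0.0181). Its rank was 94 for C643, 95 for ES-2 and 160 for Huh-7. Members with 1 seed thus did not share 1 order of the lines.

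The 5p arms were rare throughout. miR-148a-5p had 209 reads for C643, 0 for ES-2 and 591 for Huh-7, or shares of 0.00255% in C643 and 0.0272% in Huh-7. It followed the order of its 3p partner. miR-148b-5p had 0 reads for C643, 2 for ES-2 and 26 for Huh-7, with 0.0012% as its highest share. miR-152-5p had 23, 4 and 4 reads in C643, ES-2 and Huh-7.

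**Figure D1:**
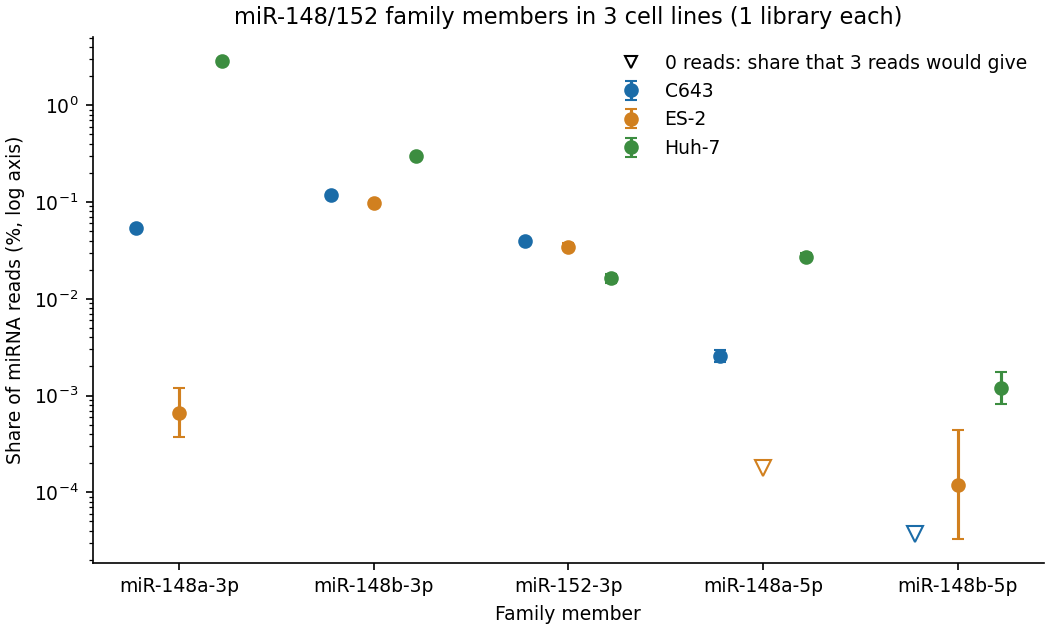
Share of miRNA reads (%, log axis) of the 5 members in C643, ES-2 and Huh-7, 1 library each. Bars are Wilson 95% intervals for counting error, and open triangles mark the share that 3 reads would give where a member had 0 reads. miR-148a-3p spread from 0.000661% in ES-2 to 2.87% in Huh-7, whereas miR-148b-3p stayed between 0.0973% and 0.298% and miR-152-3p between 0.0163% and 0.0397%.

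The make-up of the family was examined next, since it does not depend on library scaling. Reads of the mature arms, which were 21 or 22 bases long for the 3p members, were compared without a correction for length. In Huh-7 miR-148a-3p supplied 90.1% of the 69200 reads of the 3p arms (Wilson 95% CI 89.9 to 90.3). miR-148b-3p supplied 9.37% and miR-152-3p 0.513%. In C643 miR-148b-3p was the main member with 55.5% of 17288 reads (54.7 to 56.2), before miR-148a-3p with 25.7% (25.1 to 26.4) and miR-152-3p with 18.8%. In ES-2 miR-148b-3p supplied 73.5% of 2204 reads (71.6 to 75.3) and miR-152-3p 26.0%, and miR-148a-3p was reduced to 0.499% (0.279 to 0.892). Each line thus had a different leading order, and the intervals of the miR-148a-3p part did not overlap between lines.

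**Figure D2:**
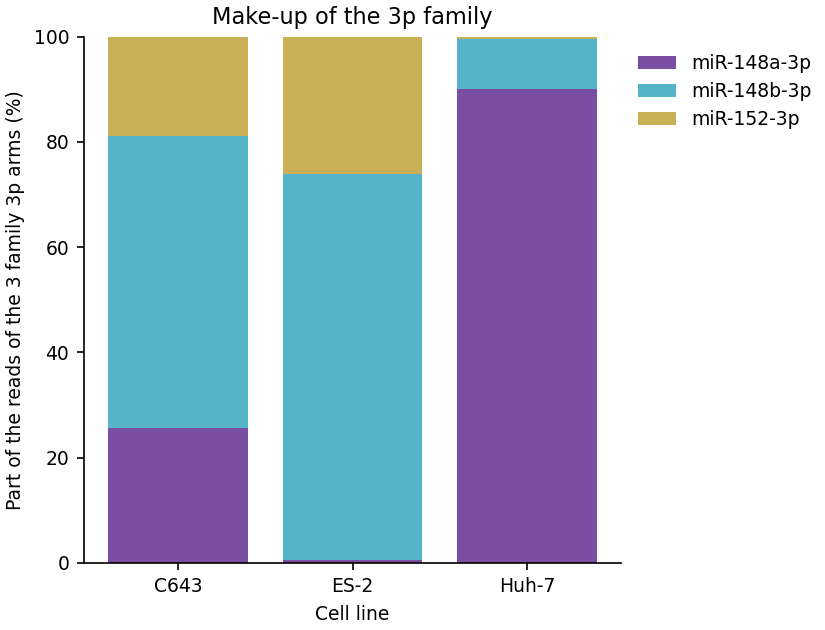
Part of the reads of the 3 family 3p arms (%) that came from miR-148a-3p, miR-148b-3p and miR-152-3p in each line, as stacked bars that start at 0 and sum to 100. miR-148a-3p made up 90.1% for Huh-7, 25.7% for C643 and 0.499% for ES-2.

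Outside miR-148a-3p, the balance of the family was the same in C643 and ES-2 within counting error. miR-148b-3p exceeded miR-152-3p 2.95-fold in C643 (exact 95% CI 2.83 to 3.07) and 2.82-fold in ES-2 (2.56 to 3.11). In Huh-7 this ratio was 18.3 (16.4 to 20.4).

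Because miR-148a-3p and miR-148b-3p differ at only 2 bases, reads of one could be counted as the other. In ES-2 the reads of miR-148a-3p amounted to 0.679% of those of miR-148b-3p (exact 95% CI 0.338 to 1.22), so at most this amount was assigned from miR-148b-3p to miR-148a-3p there. In the reverse direction the limit is wider. In Huh-7 the reads of miR-148b-3p were 0.104 of those of miR-148a-3p (0.101 to 0.107), and how many of them came from miR-148a-3p was not tested.

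ES-2 and Huh-7 share a table and were compared on the deposited values, which are reads scaled by a library factor. Differences are on the log2(value + 1) scale, which understates changes of low miRNAs. A miRNA was compared if it reached a value of 10 in either line, and a difference of 2 counted as 4-fold. Of 390 miRNAs compared, 108 were 4-fold or more above ES-2 in Huh-7, a background of 27.7%, and 76 were so in ES-2, a background of 19.5%. When values were scaled to the column sum these counts were 149 and 65, which moves the split toward Huh-7.

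4 of the 5 members passed the filter, and 2 of them were past 4-fold, both higher in Huh-7. For miR-148a-3p the deposited value was 7.64 for ES-2 and 17559 for Huh-7, giving a log2 difference of -10.99, and 4 of the 390 miRNAs had a larger difference in this direction. The share of miR-148a-3p in Huh-7 was 4338 times that in ES-2, with a counting interval of 2424 to 8690. miR-148a-5p was at 0 in ES-2 and 166 in Huh-7. With the 0 of ES-2 set to 3 reads it was 79.9-fold higher in Huh-7 on the deposited scale (exact lower limit 64.8). It passed the filter only through Huh-7, as did its 3p partner.

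miR-148b-3p and miR-152-3p did not pass 4-fold and went in opposite directions. miR-148b-3p had values of 1124 for ES-2 and 1825 for Huh-7, giving a log2 difference of -0.70. miR-152-3p had 398 for ES-2 and 99.96 for Huh-7, giving a log2 difference of 1.98, just under the limit, with a ratio of 3.99 (exact 95% CI 3.49 to 4.56). By share, the ratio of miR-152-3p was 2.11 (1.85 to 2.42), and with the median ratio of all miRNAs set to 1 the log2 difference was 2.34, past the limit. miR-148b-5p missed the filter, with 2 and 26 reads and a share 9.95-fold higher in Huh-7 (2.49 to 86.5).

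Summed over the 3p arms, the family was 24.0-fold higher in Huh-7 than in ES-2 by share (exact 95% CI 23.0 to 25.1), and the log2 difference of the deposited values was -3.67. The sum therefore differed far less than miR-148a-3p alone, and in ES-2 it consisted almost wholly of miR-148b-3p and miR-152-3p.

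C643 was set against both lines across the tables. With ES-2 as the partner, C643 had 54 of 351 miRNAs past 4-fold on its side, a background of 15.4%, and ES-2 had 38, or 10.8%, which became 67 and 34 after scaling to the column sum. 2 of the 4 members tested were past 4-fold, again both arms of miR-148a and both higher in C643, the line through which alone they passed the filter. miR-148a-3p, with a value of 521 in C643, differed by 5.92 on the log2 scale and was 82.2-fold higher by share (exact 95% CI 45.9 to 165). miR-148a-5p, at 24.5 in C643, was 11.8-fold higher on the deposited scale with the 0 of ES-2 set to 3 reads (exact 95% lower limit 9.48). miR-148b-3p had deposited values of 1124 in both lines, and by share it was 1.20-fold higher in C643 (1.142 to 1.27). miR-152-3p, at 381 in C643 and 398 in ES-2, had a log2 difference of -0.06, that became 0.20 after scaling to the column sum.

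With Huh-7 as the partner, 100 of 399 miRNAs were past 4-fold toward Huh-7, a background of 25.1%, and 90 toward C643, or 22.6%. Scaled to the column sum, these counts were 129 and 77, a lean to Huh-7. Both arms of miR-148a were past 4-fold once more, now higher in Huh-7. The log2 difference was -5.07 for miR-148a-3p, or 52.8-fold by share (exact 95% CI 51.2 to 54.4), and -2.71 for miR-148a-5p. miR-148b-3p differed by -0.70 and miR-152-3p by 1.92, both within 4-fold. By share the summed 3p family was 15.1-fold higher in Huh-7 than in C643 (14.8 to 15.3) and 1.59-fold higher in C643 than in ES-2 (1.53 to 1.67).

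**Figure D3:**
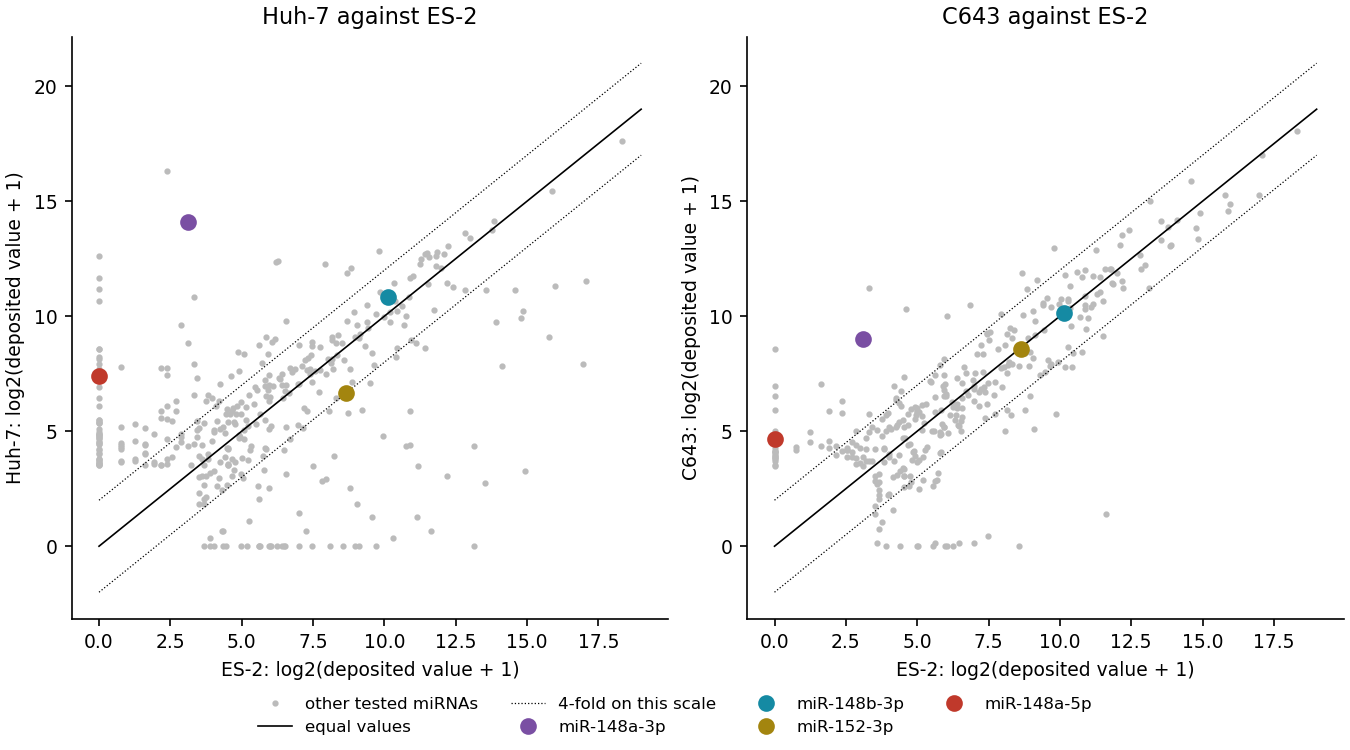
Deposited values on the log2(value + 1) scale for Huh-7 (left) and C643 (right) against ES-2. Gray points are miRNAs at 10 or more in either line, the solid line marks equal values and the dotted lines 4-fold. Both arms of miR-148a lie above the upper dotted line in each panel, miR-148b-3p lies near the line of equal values, and miR-152-3p lies just inside the lower dotted line for Huh-7 and near equality for C643.

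The arms of each hairpin were compared within a library, where both share the scaling. Among precursors with both arms listed and at least 10 reads on them, the 3p arm was at least 4-fold above the 5p arm in 41.5% of 294 for C643, 34.6% of 188 for ES-2 and 33.9% of 280 for Huh-7. All 3 family hairpins met this limit in C643 and in Huh-7, and MIR148B and MIR152 met it in ES-2. There MIR148A had 11 reads against 0, a ratio of 3.67 with the 0 set to 3 reads (exact lower limit 2.51). Among precursors with at least 100 reads the background was 36%, 33.3% and 36.1% for C643, ES-2 and Huh-7, and the family's hairpins stood past 4-fold in the same lines.

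The 3p arm of MIR148B was far above its 5p arm in every line. It exceeded the 5p arm 249-fold in Huh-7 (exact 95% CI 170 to 382) and 810-fold in ES-2 (224 to 6690, from 2 reads of the 5p arm). In C643 the 5p arm had 0 reads beside 9589, which put the ratio at 3196-fold with the 0 set to 3 reads (exact 95% lower limit 2599). At the arm ratio of Huh-7, 38.5 reads of miR-148b-5p would have been counted there, and the C643 table lists 0 for 91 miRNAs that had reads in both other lines, so this ratio and its rank depend on a 0 whose origin was not tested. By this ratio it ranked 2 of 294 for C643, 1 of 188 for ES-2 and 10 of 280 for Huh-7. MIR152 was at 141 for C643 (94.1 to 223.4), 143.5 for ES-2 (55.7 to 528) and 88.8 for Huh-7 (34.4 to 328), values whose intervals overlapped. In ES-2 and Huh-7 the intervals of MIR152 also overlapped those of MIR148B, so these hairpins could not be ordered there.

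The arm ratio of MIR148A differed between C643 and Huh-7. The 3p arm of MIR148A exceeded the 5p arm 21.3-fold in C643 (exact 95% CI 18.5 to 24.6) and 106-fold in Huh-7 (97.3 to 115). This left the 5p arm with 4.49% of the hairpin's reads in C643 (Wilson 95% CI 3.93 to 5.12) and 0.939% in Huh-7 (0.866 to 1.02). The ratio in Huh-7 was 4.96 times that in C643 (95% CI 4.22 to 5.82, normal approximation on the log scale, counting error only), so the 2 lines differed by a smaller factor in miR-148a-5p than in its partner. No replicate was at hand to set this against.

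**Figure D4:**
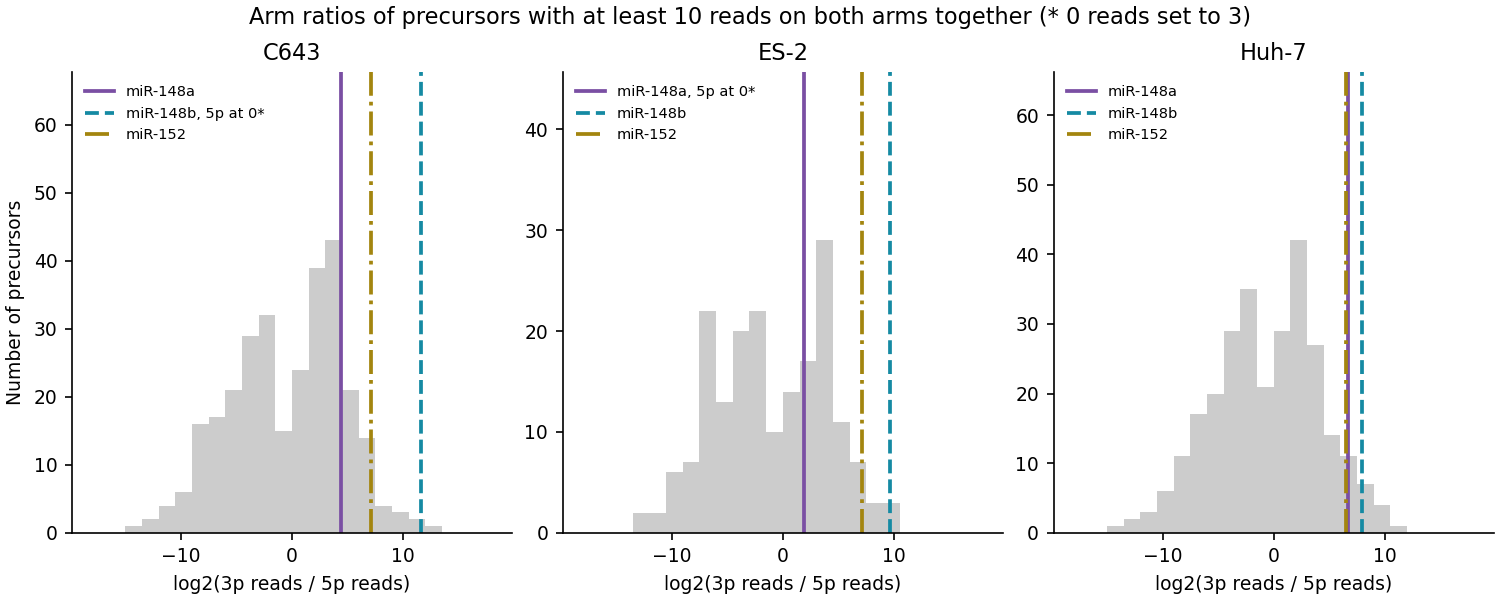
Number of precursors by log2 of 3p reads over 5p reads, for precursors with at least 10 reads on both arms together, in C643 (294 precursors), ES-2 (188) and Huh-7 (280). Lines mark the family's hairpins, and an arm with 0 reads was set to 3. MIR148B lies toward the 3p end of each distribution, and MIR148A moves from 21.3-fold in C643 to 106-fold in Huh-7.

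As miRNAs with 1 seed can share targets, reads were also summed by seed. Only miRNAs with a RefSeq sequence could be grouped. Among these, the family ranked 5 of 660 seed groups with reads in Huh-7, with 3.184% of miRNA reads (Wilson 95% CI 3.16 to 3.21). It stood below the group led by miR-26a-5p with 3.88% and above that led by miR-103a-3p with 2.10%. In C643 it ranked 29 of 495 with 0.211% (0.208 to 0.214), between miR-191-5p with 0.220% and the group of miR-182-5p with 0.168%. In ES-2 it ranked 30 of 463 with 0.133% (0.127 to 0.138), and the next group, led by miR-454-3p with 0.129%, was within counting error of it. C643 and ES-2 thus differed by 1 rank for the family while miR-148a-3p alone differed from 86 to 313. miR-21-5p ranked 1 in each line, with 28.2 to 33.3% of reads. RefSeq sequences covered 96.1% of reads for C643, 97.3% for ES-2 and 92.7% for Huh-7, and groups are counted among these. miR-30d-5p, with a deposited value of 13798 in Huh-7, was in no group. Together with miR-30e-5p (4347) and miR-30c-5p (2236), which share its seed, it exceeds the 19485 of the family. Over all miRNAs the family would thus rank lower in Huh-7, and its ranks in C643 and ES-2 may also be lower.

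The levels over the lines were compared with those of other miRNAs as the Euclidean distance of log2 shares over 3 libraries. The 422 other miRNAs at 10 or more in any line were used. The shares were not centered, so the distance takes in the overall level of a miRNA as well as its pattern over the lines. This is a description over 3 points. Nearest to miR-148a-3p were miR-483-3p, at a distance of 2.43, miR-122-5p, the liver's main miRNA, at 4.02, and miR-483-5p at 4.28. miR-483-3p had 3264 reads for C643, 0 for ES-2 and 22452 for Huh-7. miR-148b-3p lay much closer to its neighbours, which were miR-15b-5p at 0.36, miR-181b-5p at 0.55 and miR-181a-5p at 0.63. miR-152-3p was nearest to miR-484 at 0.71, miR-625-3p at 0.88 and miR-505-3p at 0.98. By this distance, which includes level, the family's members were not near each other. miR-148b-3p was the 55th miRNA from miR-148a-3p, at 7.98, and miR-152-3p the 136th, at 9.40.

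The label of Huh-7 was checked against hepatocyte miRNAs. Together miR-122-5p, miR-192-5p, miR-194-5p and miR-885-5p took 15.5% of the reads of Huh-7, against 0.0207% for C643 and 0.0132% for ES-2. All 4 were past 4-fold toward Huh-7 in both comparisons (background 27.7% against ES-2 and 25.1% against C643). Their median log2 difference was -8.89 for ES-2 minus Huh-7, where that of all 390 miRNAs was -0.54. The order of miR-148a-3p was the same. Between C643 and ES-2 the markers differed among themselves. Of these, miR-122-5p passed the filter only through C643. Its share in C643 was 15.9 times that in ES-2 (exact 95% CI 7.23 to 43.4, from 468 and 6 reads), past 4-fold in the direction of miR-148a-3p. That of miR-192-5p was 1.04 times (0.849 to 1.29) and that of miR-194-5p 1.27 times (1.03 to 1.57), and miR-885-5p had 12 and 0 reads. Blood cell miRNAs, as markers of another source, took 0.127% of reads for Huh-7, 0.0486% for ES-2 and 0.00246% for C643. Of 3 tested between ES-2 and Huh-7, 2 were past 4-fold toward ES-2 (background 19.5%) and 1 toward Huh-7 (background 27.7%). Each passed the filter only through the line where it was higher. The median over all 7 was 0.61. Of the 7, miR-144-3p had 0 reads in each line, miR-451a and miR-223-3p had 0 or 1, and miR-150-5p had 24 reads in C643 and 2 in each of the others. miR-486-5p, with 2766 reads, made up most of the sum in Huh-7, and miR-142-3p with 542 and miR-142-5p with 255 in ES-2. Their part in the values of the family was not tested. No thyroid or ovary marker was set for C643 and ES-2.

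The miR-29 family is known for targeting the de novo DNA methyltransferases DNMT3A and DNMT3B and was set beside this one. Summed, it had the reverse order of lines to the 3p sum of the miR-148 and miR-152 family, of which miR-152-3p was also lowest in Huh-7. The shares of miR-29a-3p, miR-29b-3p and miR-29c-3p summed to 2.60% for ES-2, 1.10% for C643 and 0.195% for Huh-7. miR-29a-3p led with 42639 reads for ES-2, 89263 for C643 and 4197 for Huh-7. The share of miR-29c-3p was 0.00121% in C643 and 0.00129% in Huh-7, with overlapping intervals. Between ES-2 and Huh-7, 2 of the 3 were past 4-fold toward ES-2 (background 19.5%), with a median log2 difference of 4.65. Between C643 and Huh-7, 2 were past it toward C643 (background 22.6%). miR-29b-3p and miR-29c-3p, at 4.79 and 7.88 in Huh-7, passed the filter in both comparisons only through the other line. The reads of miR-29 exceeded those of the miR-148 and miR-152 family in ES-2, with 43318 against 2204, and in C643, with 89868 against 17288. In Huh-7 they were fewer, with 4242 against 69200.

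The miR-130 and miR-301 family with miR-454-3p has a seed that begins 1 base further along the same letters. In 4 of 4 members with a RefSeq sequence, bases 2 to 7 were the bases 3 to 8 of the miR-148 seed region. The shares of its 5 members summed to 0.239% for Huh-7, 0.130% for ES-2 and 0.0474% for C643. Of this, miR-454-3p held 0.193%, 0.122% and 0.0351%. Between ES-2 and Huh-7, 1 of the 4 tested, miR-130a-3p, was past 4-fold, toward Huh-7, which is near the background of 27.7%. The median over all 5 was -1.49. In ES-2 this sum and that of the miR-148 and miR-152 family, with 2163 and 2204 reads, had overlapping intervals.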

How the data were processed

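Small RNA libraries of C643, ES-2 and Huh-7 were made from total RNA with a NEXTflex kit. The submitters' processing notes name cutadapt 1.14, Bowtie2 2.3.3, SAMtools 1.5, featureCounts 1.5.3, edgeR 3.18.1 and hg38, with no role given. The miRNA annotation and the treatment of multiple matches or random adapter bases are not given in the sources used here. The values the authors deposited are a signal: the reads of each locus, multiplied by a number particular to the library, under the name CPM. Column sums were 959302, 1154552 and 612015, so they are not plain CPM as the design had assumed. Dividing by the smallest value gave whole reads (tolerance 0.001) for 100% of nonzero values. Reads may be PCR copies, and both intervals and floors therefore describe counting error alone.

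Shares are of the column sum. Intervals are Wilson for shares and exact (Clopper-Pearson on the split of reads) for ratios, unless named otherwise. A count of 0 was set to 3 reads. Members, 4 miRNA lists (hepatocyte, blood cell, miR-29, miR-130 and miR-301 with miR-454) and alternatives were chosen with earlier results of these data known. Named miRNAs were the members, miR-152-5p, miR-21-5p, the lists, the 3 miRNAs at the smallest distance and adjoining seed groups. miR-30c-5p, miR-30d-5p and miR-30e-5p were added after the seed ranks were known. As an alternative added later, a two-sided exact binomial test on reads of ES-2 and Huh-7 (Benjamini-Hochberg, 0.05), checked on simulated reads, compared these 2 libraries and not the lines. Python 3.11.15, pandas 2.3.3 and SciPy 1.17.1 were used.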

Additional observations from a re-analysis of the deposited data

How the results depend on the processing

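No paired analysis was possible because there was 1 library per line and no shared replicate number, and no replicate could be left out. Of the alternative values for the main results, 50 stayed within counting error (or within 1.5 times for ranks and counts), 28 moved and 0 reversed. The moves follow from the construction of the alternatives. Only a log2 difference of at least 2 in size could count as reversed, so the 0 says nothing of the other results. Of 48 alternative log2 differences of the 3p members and their sum, 47 kept their sign and 47 their side of 4-fold.

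Given for C643, then ES-2, then Huh-7, the share of the 3p family was 0.203%, 0.153% and 1.95% with 1000000 as the denominator, 0.296%, 0.185% and 4.77% without miR-21-5p in it, and 0.254%, 0.155% and 3.51% with 1 locus per mature miRNA. The part of miR-148a-3p was 31.7% in C643 and 90.6% in Huh-7 beside miR-148b-3p alone, and 26.6% in C643 with both arms.

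Scaling to the column sum shifts each log2 difference by about -0.92 for ES-2 minus Huh-7, 0.27 for C643 minus ES-2 and -0.65 for C643 minus Huh-7, and the median log2 ratio of ES-2 to Huh-7 as deposited was -0.36 over 319 miRNAs. After scaling to the column sum, ES-2 minus Huh-7 was -1.61 for miR-148b-3p, 1.07 for miR-152-3p and -4.59 for the sum. C643 minus ES-2 was 0.27, 0.20 (the change of sign) and 0.67. C643 minus Huh-7 was -5.72 for miR-148a-3p, -1.35 for miR-148b-3p, 1.28 for miR-152-3p and -3.91 for the sum. With the median ratio set to 1, ES-2 minus Huh-7 was -0.34 for miR-148b-3p, 2.34 for miR-152-3p, which is then past 4-fold, and -3.31 for the sum, and C643 minus Huh-7 was -3.23 for the sum. With a pseudocount of 10, miR-148a-3p gave -9.96 for ES-2 minus Huh-7 and 4.91 for C643 minus ES-2.

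Background counts at 4-fold moved by over 1.5 times as follows. For ES-2 against Huh-7 (76 and 108), a filter at 100 gave 48 and 42. A pseudocount of 10 gave 60, and no filter 180, higher in Huh-7. For C643 against ES-2 (54 and 38), a pseudocount of 10 gave 22 and 24, a filter at 100 gave 18 and 16, no filter 123 and 82, and 2-fold 115 and 89. For C643 against Huh-7 (90 and 100), a filter at 100 gave 54 and 44 and no filter 141 and 173. A pseudocount of 10 gave 55, and 2-fold 157, higher in Huh-7. The read test called 344 of 390 miRNAs, 134 toward ES-2 and 210 toward Huh-7, with 4 of 4 members tested among them. The rank of the family by seed, among miRNAs with a RefSeq sequence, was 26, 26 and 4 with 1 locus per mature miRNA. Of the 3 miRNAs nearest to miR-148a-3p, 2 were kept on the deposited scale. Low counts limited miR-148a-5p and miR-148b-5p most, and in ES-2 also miR-148a-3p with its 11 reads.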

Other observations

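miR-148b-5p had 0 reads in C643, the deepest library. At the share it had in Huh-7 it would have had 97.9 reads there, and at the arm ratio of Huh-7 38.5. At the share and arm ratio of ES-2, which rest on 2 reads, it would have had 9.84 and 11.8. It was 1 of 91 miRNAs with 0 reads in C643 and reads in both other lines, of which 44 would have had at least 10 reads in C643 at the lower of the other shares. The corresponding counts were 19 of 104 for ES-2 and 18 of 46 for Huh-7. A limit of 10 reads is a smaller share in C643 (8183100 reads) than in ES-2 (1663181) or Huh-7 (2173587). These counts therefore cannot be compared directly between lines. Whether the C643 table was filtered apart from the other was not tested.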
